A study of Mus musculus with 6 samples.

Results

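The 43 genes described here encode the machinery that makes ribosomes in the nucleolus. They were taken as a list of symbols, with every probe set that names only those genes on the array. The list was chosen with earlier results of these data known, so its shares beside those of all genes are descriptive. Of the 43 genes, 42 were measured, with 87 probe sets, out of 18193 genes and 45037 non-control probe sets in the table. Mrto4, an assembly factor of the large subunit, lay only on a probe set that names several genes and has no value here. A gene was read from its probe set with the highest mean over all arrays; 31 genes had several probe sets and 11 had 1.

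The study profiled natural killer (NK) cells, the innate lymphocytes that kill infected and transformed cells, at successive stages of maturation. All cells came from the spleens of RAG-/- mice, which cannot rearrange antigen receptors and so have no mature B or T cells. Cells positive for the surface marker NK1.1 were separated by sorting into CD27+CD11b- cells (least mature), CD27+CD11b+ double-positive cells (intermediate) and CD27-CD11b+ cells (most mature), with 2 arrays for each of the 3 subsets and 6 arrays in all. The sources call the replicates independent but name no separate animals, so the p-values measure the spread between these arrays, which may be partly technical. No treatment was given, the RAG-/- background is shared by every array, and the age of the mice is not given in the sources used here.

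Ribosome synthesis starts when RNA polymerase I transcribes the ribosomal DNA into a long precursor, which small nucleolar ribonucleoproteins (snoRNPs) modify and which the processing factors of both subunits cut and fold. Its level follows growth and division in lymphocytes, where the transcription factor Myc is a known activator of many of the genes involved. Resting lymphocytes have small nucleoli, and activated ones enlarge them.

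Expression values are log2 values normalised by the authors, so a difference of 1 is a 2-fold difference, and values of different probe sets are not comparable in level. As a guide to background, 56 genes of unrelated tissues were read on the same arrays, and the 95th percentile of their means was 6.67. In 1 subset or more, 40 of the 42 genes exceeded it, and Rrp12 and Nop16 did not. The array medians ranged between 5.26 and 5.36, and 2 arrays a subset limit how precise any difference can be. In RNA from sorted populations, fewer cells of a type and less RNA per cell cannot be told apart.

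All 15 NK cell markers were above background, with array means of the list between 11.33 and 12.13. The arrays also divided across the subsets: 3 probe sets without a gene name averaged 12.57 to 12.81 on 3 arrays (replicate 2 of each CD27+ subset and replicate 1 of CD27-CD11b+), called high arrays here, and 4.33 to 4.47 on the other 3, called low arrays. No label names this division, which was read from the values. Each subset holds 1 array of each kind. Monocyte and macrophage markers, of which 12 of 18 lay above background and whose list mean ranged between 6.19 and 8.03, were higher on the high array in every subset, by medians of 1.63, 1.12 and 0.95 in order of maturation. Cell cycle genes were lower on the high array, with medians of -1.16, -1.18 and -0.13. The sorting information of CD27-CD11b+ replicate 1 is contradictory, since its protocol text describes the CD27+CD11b- gate while its title names the CD27-CD11b+ subset. It was grouped by its title, and its Cd27 value of 6.96 and Itgam (CD11b) value of 9.93 lie beside 6.47 and 9.44 in replicate 2 of that subset. These values compare arrays titled as the same subset, so they cannot tell which gate was used.

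The only gene of the 42 that passed the test in any comparison was Tsr1, a factor of late small subunit maturation. It was lower in CD27-CD11b+ than in CD27+CD11b- cells, where 3.39% of all genes passed and 1.15% were called lower. The call did not hold with every probe set tested on its own, or with any array of either subset left out. Most other genes of the list differed by less than 0.5 on the log2 scale between any subsets, and the list had a median difference of -0.20 in CD27-CD11b+ against CD27+CD11b- cells, or -0.012 without CD27-CD11b+ replicate 2. Most listed core proteins of the snoRNPs, the abundant nucleolar protein Npm1 and the nucleolar GTPase Gnl3 were lower on both CD27-CD11b+ arrays than on both CD27+CD11b- arrays. They did not pass the test, and 24.3% of all genes shared that position. Several large subunit factors and Ncl had values that overlapped or were higher.

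**Figure D1:**
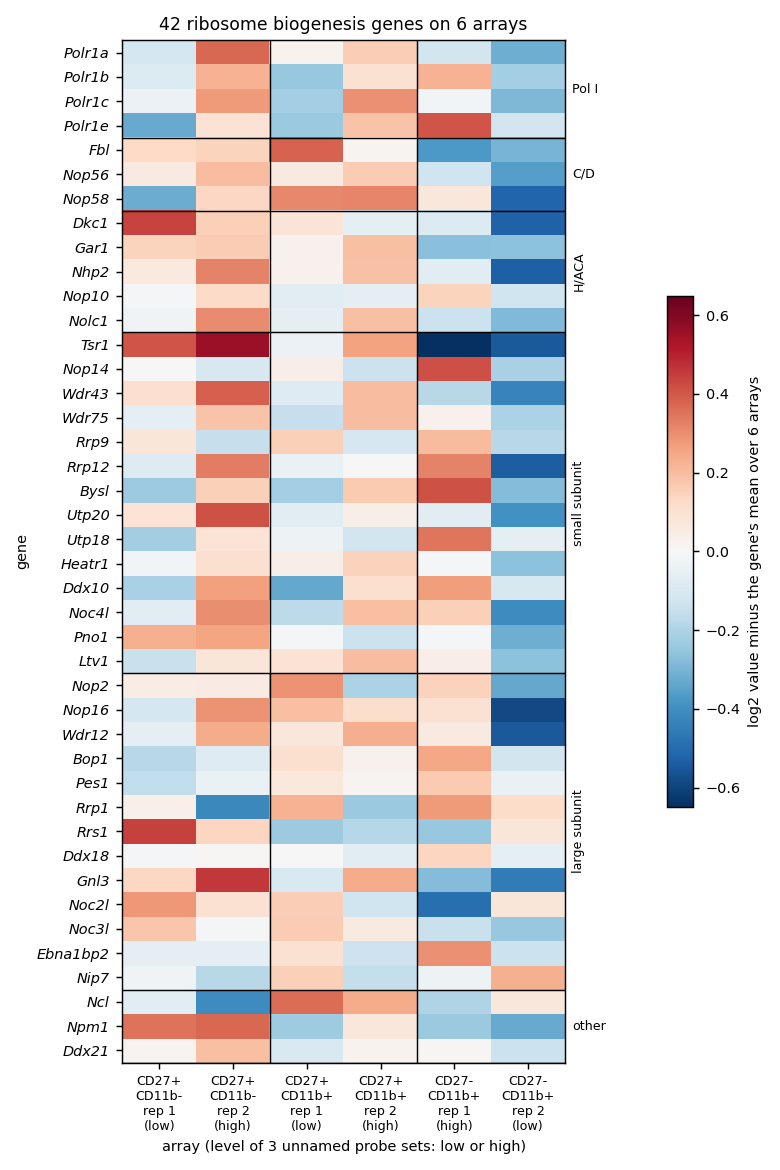
Log2 value of each of the 42 genes minus its own mean over the 6 arrays (colour scale), with arrays in columns ordered by subset and genes in rows grouped by role; low and high name the 2 kinds of array defined by 3 unnamed probe sets. Tsr1 is highest in CD27+CD11b- cells and lowest in CD27-CD11b+ cells, and CD27-CD11b+ replicate 2 is low for most genes.

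The promoters of these genes were read first for features the choice of genes did not use. RefSeq windows of 300 bases, from 250 before to 50 after the gene start (build GRCm38.p6), were matched for 38 of the 43 genes; Bop1, Fbl, Npm1, Rrp12 and Rrs1 were not matched. The E-box CACGTG, the sequence that Myc and its partner Max recognise, reads the same on both strands and was present in 8 of 38 genes (21.1%), against 8.91% of 17491 protein-coding genes. The core of ETS-family sites, CCGGAA on either strand, was present in 18 of 38 genes (47.4%), against 20.9% of all protein-coding genes. TATAAA on either strand was present in 2 genes (5.26%), against 14.8% of all. The motifs were counted independently of each other. Median GC content was 59.3% in these windows, against 56.3% in all, and the median number of CpG dinucleotides was 22, against 13, so the windows also differ in base composition. A match describes these letters and is not evidence of a bound site.

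The 30 bases around each E-box are shown for all 8 genes because Tsr1 is among them, with CACGTG in capitals, 5′ to 3′ on the strand of the gene. The first base of the motif lay 25 bases into the Tsr1 transcript counted from its first base, against 18 in Wdr43, 38 in Utp20, 38 in Pno1, 29 in Ltv1 and 3 in Pes1. In Utp18 it began 20 bases before the gene start and in Nop2 60 bases before it.
Tsr1 (chr11:74898092-74898121, plus strand): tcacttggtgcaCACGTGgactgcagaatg
Wdr43 (chr17:71616220-71616249, plus strand): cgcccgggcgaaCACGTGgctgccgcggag
Utp20 (chr10:88826765-88826794, minus strand): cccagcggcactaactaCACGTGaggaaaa
Utp18 (chr11:93885769-93885798, minus strand): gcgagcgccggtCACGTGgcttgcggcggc
Pno1 (chr11:17211540-17211569, minus strand): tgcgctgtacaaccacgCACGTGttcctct
Ltv1 (chr10:13193092-13193121, minus strand): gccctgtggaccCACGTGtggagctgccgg
Nop2 (chr6:125131811-125131840, plus strand): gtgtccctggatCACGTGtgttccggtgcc
Pes1 (chr11:3963965-3963994, plus strand): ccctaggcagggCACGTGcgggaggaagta

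The whole Tsr1 window, chr11:74897830-74898129 on the plus strand of GRCm38.p6, is shown for context with the E-box in capitals. It also holds CCGGAA, in lower case, and no TATAAA.
Tsr1 promoter: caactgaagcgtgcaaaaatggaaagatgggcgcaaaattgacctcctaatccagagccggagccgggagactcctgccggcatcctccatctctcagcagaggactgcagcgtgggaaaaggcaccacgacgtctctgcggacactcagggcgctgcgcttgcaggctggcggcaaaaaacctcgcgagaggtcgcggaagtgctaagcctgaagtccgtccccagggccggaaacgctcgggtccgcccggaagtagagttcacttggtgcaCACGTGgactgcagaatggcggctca

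The first comparison asks what differs as CD27+ cells gain CD11b. None of the 42 genes passed an adjusted p of 0.05 (limma, Benjamini-Hochberg over 18193 genes) in CD27+CD11b+ cells against CD27+CD11b- cells. Of all genes, 0.121% passed, 0.0879% lower and 0.033% higher (16 and 6 genes). At an unadjusted p under 0.05 there were 3 of the listed genes, Rrs1 and Npm1 lower, against 1.96% of all genes, and Ncl higher, against 1.84%. The median difference of the 42 genes was -0.034, against -0.0074 for all genes, and 25 of 42 lay below 0, against 51.9% of all genes. That median became -0.14 when CD27+CD11b- replicate 1 was left out, turned to 0.043 when replicate 2 of that subset was, and became -0.11 when the second CD27+CD11b+ array was. Both arrays were lower for 7 genes, where 15.6% of all genes met that condition, and both were higher for 5, where 14.7% did. These shares lie near those of all genes. Among genes above background, both arrays were lower for 13.6% and higher for 20.1%, and 44.6% lay below 0.

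Ncl (nucleolin), an abundant RNA-binding protein that coats the ribosomal precursor, had 11.41 and 11.29 in CD27+CD11b+ cells, against 10.97 and 10.64 in CD27+CD11b- cells. The arrays did not overlap, and the difference of 0.54 (SE 0.18, limma adjusted p = 1.0) did not pass. It did not extend to every Ncl probe set: the other 3 above background differed by -0.22, 0.019 and 0.28. Nop58, a scaffold of the box C/D snoRNP, had 8.07 and 8.08 in CD27+CD11b+ cells, against 7.44 and 7.89 in CD27+CD11b- cells, a difference of 0.41 (SE 0.23) that did not pass either. Npm1 (nucleophosmin), which chaperones ribosomal proteins and subunits, had 11.40 and 11.71 in CD27+CD11b+ cells, against 11.99 and 12.01 in CD27+CD11b- cells. Rrs1, a factor that places the small ribosomal RNA of the large subunit, had 10.26 and 10.30 in CD27+CD11b+ cells, against 10.94 and 10.63 in CD27+CD11b- cells. Its second probe set differed by 0.0053 in the same comparison.

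The second comparison asks what differs as CD11b+ cells lose CD27. None of the 42 genes passed the limma test in CD27-CD11b+ cells against CD27+CD11b+ cells, where 0.297% of all genes did, 0.126% lower and 0.17% higher. At an unadjusted p under 0.05 there were 4 lower, Tsr1, Fbl, Gar1 and Gnl3, against 3.44% of all genes, and none higher, against 7.7%. Both CD27-CD11b+ arrays lay below both CD27+CD11b+ arrays for 18 of 42 genes (42.9%), against 17.1% of all genes, and above them for none, against 22.8% of all genes. In all, 29 of 42 genes lay below 0, against 46.9% of all genes. The median difference was -0.16, against 0.019 for all genes and 0.15 for the 8239 genes above background. It was -0.27 within the low arrays and -0.048 within the high arrays. Leaving out CD27-CD11b+ replicate 2 brought it to -0.043, and leaving out replicate 1, whose sorting information is contradictory, brought it to -0.29; without CD27+CD11b+ replicate 1 it was -0.25.

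The third comparison sets the most mature cells against the least mature ones. Tsr1 fell in CD27-CD11b+ cells against CD27+CD11b- cells and was the only 1 of 42 genes called lower, where 1.15% of all genes were called lower and 2.24% higher (617 genes, 3.39%, in either direction). No listed gene was called higher. At an unadjusted p under 0.05 there were 11 lower, against 6.39% of all genes, and none higher, against 12.5%. Both CD27-CD11b+ arrays lay below both CD27+CD11b- arrays for 17 of 42 genes (40.5%), where 24.3% of all genes did, and above them for 1, Rrp1, where 26.9% did. The median difference was -0.20, against -0.0055 for all genes and 0.17 for genes above background, and 29 of 42 genes lay below 0, against 50.8% of all genes. Leaving out CD27-CD11b+ replicate 2 brought the median to -0.012, leaving out CD27+CD11b- replicate 2 brought it to -0.094, and leaving out CD27-CD11b+ replicate 1 brought it to -0.32.

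These counts depended on how the arrays were centred. Of all 617 called genes, 33.9% were lower in the main fit; setting the medians of the genes above background equal between arrays, an alternative added after seeing the data, made that 64.6% of 568, and setting the medians of all genes equal made it 26.3% of 693. With the genes above background set equal, 37 of 42 listed genes lay below 0, their median was -0.39, and 3 were called lower, where 2.02% of all genes were: Tsr1, Npm1 (adjusted p = 0.033) and Gnl3 (adjusted p = 0.043). For the loss of CD27, the same setting made the lower share 58.9% of called genes, against 42.6% in the main fit.

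**Figure D2:**
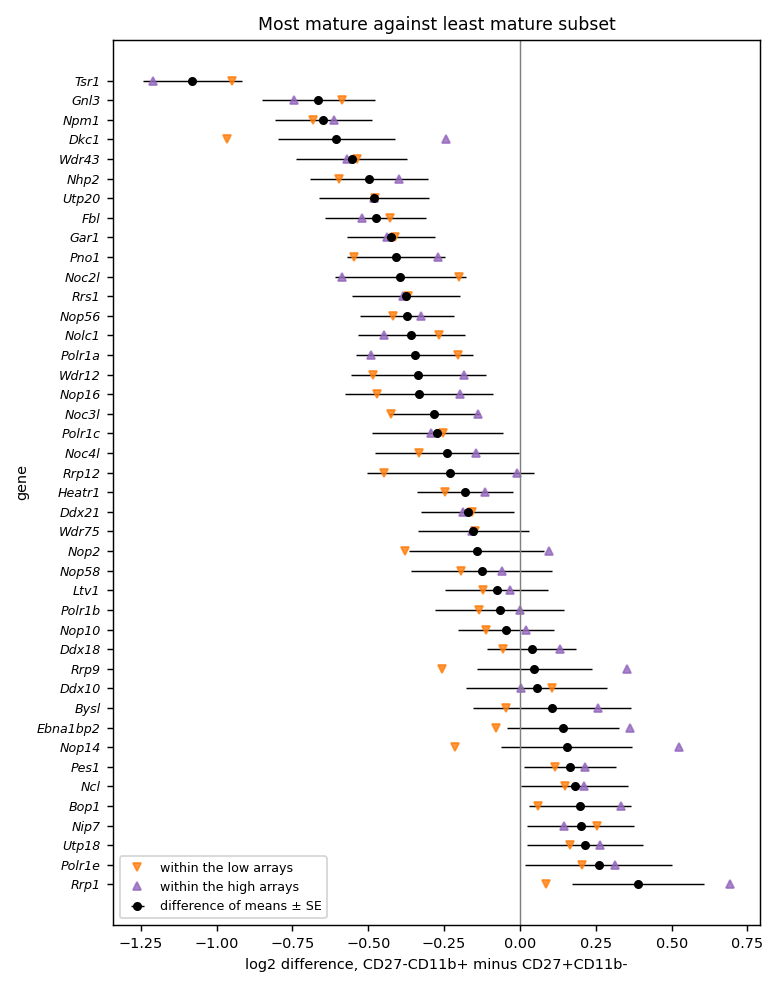
Difference of mean log2 values, CD27-CD11b+ minus CD27+CD11b-, for each of the 42 genes (black points, bars are the SE of the limma fit), with the difference within the low arrays and within the high arrays as triangles. Tsr1 lies farthest below 0 at -1.08, and Rrp1 farthest above at 0.39.

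Tsr1, which resembles a translation GTPase and sits on the small subunit precursor until late in its maturation, had 10.82 and 10.97 in CD27+CD11b- cells, 10.37 and 10.67 in CD27+CD11b+ cells, and 9.76 and 9.87 in CD27-CD11b+ cells. The 3 subsets did not overlap and followed the order of maturation. Means were 9.82 ± 0.075 in CD27-CD11b+ cells and 10.90 ± 0.11 in CD27+CD11b- cells (SD, n = 2 each). The difference was -1.08 (SE 0.16, 2.11-fold lower, limma adjusted p = 0.0157), with -0.95 within the low arrays and -1.21 within the high arrays. The steps of -0.37 (limma adjusted p = 1.0) at the gain of CD11b and -0.71 (limma adjusted p = 0.16) at the loss of CD27 did not pass on their own. Leaving out any 1 of the 4 arrays ended the call, with adjusted p between 0.053 and 0.137 (limma), the highest without CD27-CD11b+ replicate 1, and differences between -1.16 and -1.003. The second Tsr1 probe set had 7.82 and 7.85 in CD27+CD11b- cells, 7.72 and 7.64 in CD27+CD11b+ cells, and 6.80 and 7.21 in CD27-CD11b+ cells, the same order of subsets. Both Tsr1 probe sets carry the _s_at ending, which marks probes that may match transcripts of other genes too, and with every probe set tested on its own neither passed (limma adjusted p = 0.055 for the first and 0.11 for the second); 0.282% of all probe sets were then called lower.

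Npm1 had 11.99 and 12.01 in CD27+CD11b- cells, 11.40 and 11.71 in CD27+CD11b+ cells, and 11.40 and 11.31 in CD27-CD11b+ cells. The CD27-CD11b+ arrays lay below both CD27+CD11b- arrays, and the difference of -0.65 (SE 0.16, limma adjusted p = 0.074) did not pass. Gnl3 (nucleostemin), a nucleolar GTPase of large subunit assembly that is abundant in proliferating cells, had 9.14 and 9.46 in CD27+CD11b- cells, 8.90 and 9.25 in CD27+CD11b+ cells, and 8.72 and 8.55 in CD27-CD11b+ cells. Its difference was -0.66 (SE 0.19, limma adjusted p = 0.11), and the outer subsets did not overlap. Wdr43, a subunit of the small subunit processome, had 9.24 and 9.52 in CD27+CD11b- cells, 9.05 and 9.34 in CD27+CD11b+ cells, and 8.95 and 8.70 in CD27-CD11b+ cells, with a difference of -0.55 (SE 0.18, limma adjusted p = 0.15). With the kind of array as a block, these 3 genes passed beside Tsr1 (limma adjusted p = 0.035 for Npm1, 0.028 for Gnl3 and 0.048 for Wdr43), making 4 of 42 genes lower, where 2.83% of all genes were. With an intensity trend in the variance prior, Npm1 passed beside Tsr1 (limma adjusted p = 0.047), making 2 of 42, where 1.18% of all genes were lower. The second Npm1 probe set had a difference of -0.38 and the second Wdr43 probe set -0.25.

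**Figure D3:**
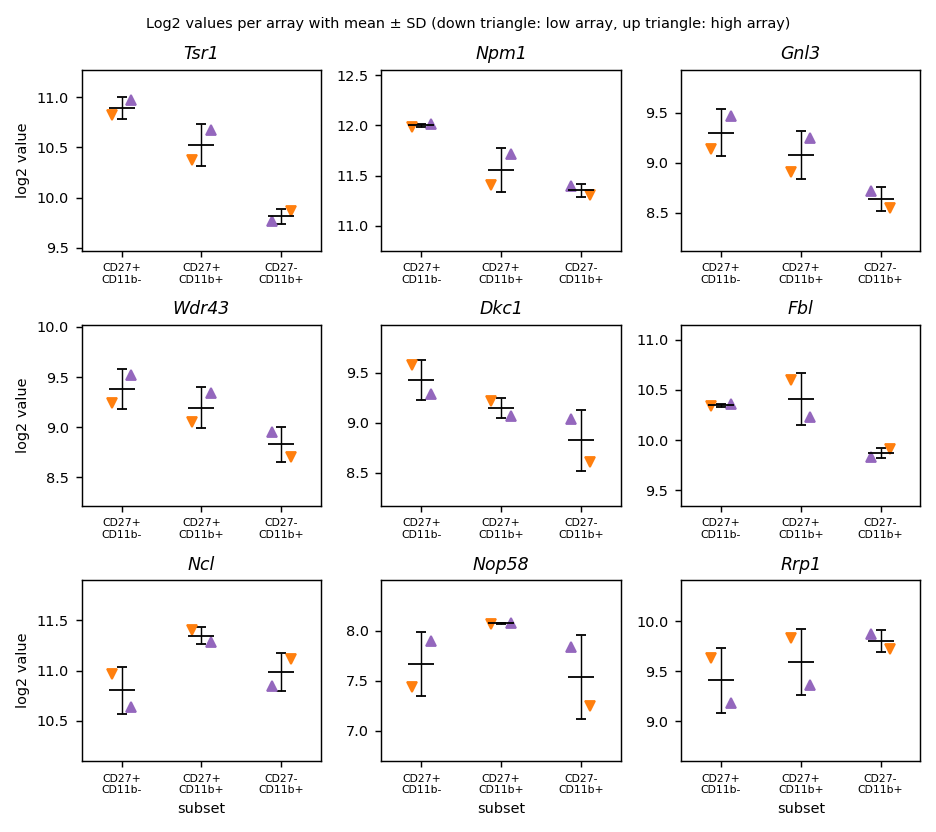
Log2 values of 9 genes on every array (triangles; down for low arrays and up for high arrays), with the mean and SD of the 2 arrays of each subset; each panel has its own level but the same height of 1.8 log2 units. On the probe set used for each gene, Tsr1, Npm1, Gnl3, Wdr43, Dkc1 and Fbl are lowest in CD27-CD11b+ cells. Ncl and Nop58 are highest in CD27+CD11b+ cells, and Rrp1 is highest in CD27-CD11b+ cells.

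The 4 listed subunits of RNA polymerase I, which transcribes the ribosomal DNA, did not pass in any comparison. Their median in CD27-CD11b+ against CD27+CD11b- cells was -0.17. Polr1a, the largest catalytic subunit, had 7.22 and 7.71 in CD27+CD11b- cells, 7.36 and 7.50 in CD27+CD11b+ cells, and 7.21 and 7.02 in CD27-CD11b+ cells. Its CD27-CD11b+ arrays lay below those of both other subsets. Polr1e, which takes part in initiation, ran the other way, with a difference of 0.26 (SE 0.24), and Polr1b, the second largest subunit, and Polr1c, shared with RNA polymerase III, overlapped between subsets. All 4 listed subunits were higher on the high array in all 3 subsets, as were 20.7% of all genes and 32.1% of genes above background. The medians were 0.37, 0.38 and 0.36 in order of maturation.

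Of the box C/D snoRNP, which methylates ribosomal RNA, 3 core proteins are on the list. All 3 lay lower in CD27-CD11b+ than in CD27+CD11b+ cells with no overlap of arrays, a condition that 17.1% of all genes met. Fbl (fibrillarin), the methyltransferase, had 10.34 and 10.36 in CD27+CD11b- cells, 10.59 and 10.23 in CD27+CD11b+ cells, and 9.84 and 9.91 in CD27-CD11b+ cells. The difference at the loss of CD27 was -0.54 (SE 0.17, limma adjusted p = 0.28), with a second Fbl probe set in the same direction. Nop56, a scaffold protein, had 8.81 and 8.58 in CD27-CD11b+ cells, against 8.996 and 9.11 in CD27+CD11b+ cells. Nop58 had 7.83 and 7.24 in CD27-CD11b+ cells, against 8.07 and 8.08 in CD27+CD11b+ cells, and overlapped between the outer subsets.

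The box H/ACA snoRNP converts uridine to pseudouridine, and its core proteins also belong to telomerase. The 4 core proteins and the chaperone Nolc1 all lay below 0 in CD27-CD11b+ against CD27+CD11b- cells, with a median of -0.42, and for all but Nop10 both CD27-CD11b+ arrays lay below both CD27+CD11b- arrays, as they did for 24.3% of all genes. None passed the test. Dkc1 (dyskerin), the pseudouridine synthase, had 9.57 and 9.28 in CD27+CD11b- cells, 9.21 and 9.07 in CD27+CD11b+ cells, and 9.04 and 8.60 in CD27-CD11b+ cells. On the probe set used, the 3 subsets followed the order of maturation without overlap. The outer difference of -0.60 (SE 0.19, limma adjusted p = 0.15) was -0.97 within the low arrays and -0.24 within the high arrays. The other Dkc1 probe sets gave -0.39 and -0.24 in the same comparison. At the loss of CD27, a further Dkc1 probe set above background had the opposite sign to the one used. Gar1 had a difference of -0.42 (SE 0.14, limma adjusted p = 0.16) and Nhp2 one of -0.50 (SE 0.20, limma adjusted p = 0.22). Nop10 disagreed between probe sets, at -0.047 on the brighter and 0.86 on the dimmer. Nolc1 did so too, at -0.36 on the brightest and 0.37 on the second, which lay near background.

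Of the 14 small subunit factors, Tsr1 passed and the other 13 did not, with a median of -0.17 in CD27-CD11b+ against CD27+CD11b- cells. Besides Tsr1 and Wdr43, both CD27-CD11b+ arrays lay below both CD27+CD11b- arrays for Utp20, a large scaffold of the processome, and Pno1, which binds beside the last cleavage site. That is 28.6% of the 14 factors, against 24.3% of all genes and 15.5% of genes above background. Utp20 had 7.99 and 7.67 in CD27-CD11b+ cells, against 8.14 and 8.47 in CD27+CD11b- cells. Pno1 had 7.75 and 7.44 in CD27-CD11b+ cells, against 7.99 and 8.02 in CD27+CD11b- cells. Both had the E-box shown above, as did Utp18 and Ltv1, whose differences were 0.21 and -0.077 with overlapping arrays; Ltv1 is a late export factor and Utp18 a processome subunit. The other 8 ranged between -0.24 and 0.15 and overlapped between the outer subsets. They were the processome subunits Nop14, Wdr75, Rrp9, Heatr1 and Noc4l, the RNA helicase Ddx10, Bysl, which stays on the later precursor, and Rrp12, an export factor at -0.23 and below background.

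The 13 large subunit factors showed no common order, with a median of -0.14 and 7 of 13 below 0. The 3 proteins of the PeBoW complex, which is needed to process the precursor of the large subunit, differed in sign: Pes1 had 0.17, Bop1 0.20 and Wdr12 -0.33. Rrp1, an early large subunit factor, had 9.63 and 9.18 in CD27+CD11b- cells, 9.83 and 9.36 in CD27+CD11b+ cells, and 9.87 and 9.72 in CD27-CD11b+ cells. It was the only listed gene whose CD27-CD11b+ arrays both lay above the CD27+CD11b- ones, by 0.39 (SE 0.22, limma adjusted p = 0.39), and its second probe set gave 0.49. Rrs1 lay lower on its brighter probe set, at -0.38, and higher on the other, at 0.25. Noc2l and Noc3l, partners in early assembly, had -0.39 and -0.28, though a second Noc2l probe set gave 0.048. The remaining factors, the methyltransferase Nop2, the RNA helicase Ddx18, Nop16, Ebna1bp2 and Nip7, ranged between -0.33 and 0.20 with overlapping arrays, Nop16 below background.

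Of the multifunctional nucleolar proteins, Npm1 is given above. Ncl had 10.85 and 11.12 in CD27-CD11b+ cells, against 11.41 and 11.29 in CD27+CD11b+ cells, and overlapped between the outer subsets. Ddx21, an RNA helicase that couples transcription to processing, had 8.79 and 8.64 in CD27-CD11b+ cells, against 8.80 and 8.97 in CD27+CD11b- cells. The difference of the second step minus the first was -0.91 for Ncl and -0.94 for Nop58 on the probe sets used. In each step a further Ncl probe set above background had the opposite sign to the one used. No listed gene passed the limma test of that difference (2 at an unadjusted p under 0.05, the same 2 genes), where 1 of 18193 genes (0.0055%) passed and 3.01% had an unadjusted p under 0.05. Over the 26 further probe sets of listed genes above background, 7, of 6 genes, had the opposite sign to the probe set used in the outer comparison.

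**Figure D4:**
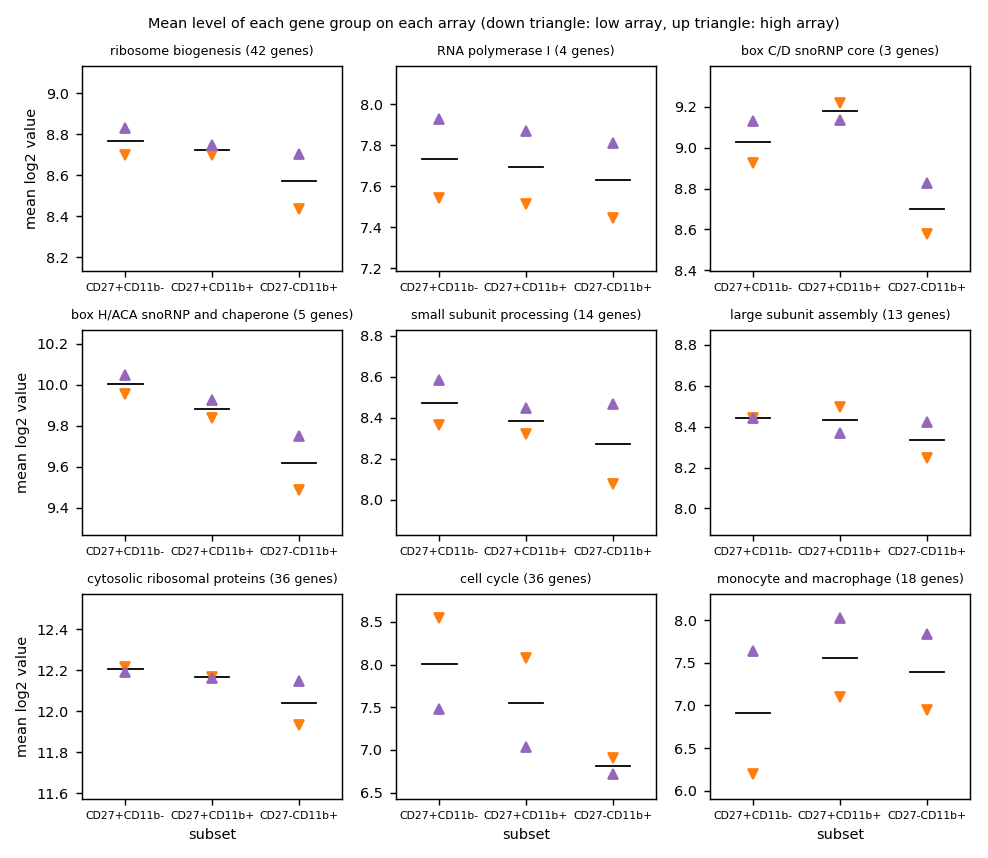
Mean log2 value of each gene group on every array (triangles; down for low arrays and up for high arrays) with the mean of each subset as a line; the first 7 panels span 1 log2 unit and the cell cycle and monocyte panels 2.4. The H/ACA group is lowest in CD27-CD11b+ cells on both arrays, RNA polymerase I is higher on the high array in each subset, and cell cycle and monocyte genes differ between the kinds of array by more than 1 unit in some subsets.

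The listed genes also differed between the kinds of array. Their mean was 8.70 and 8.83 in CD27+CD11b- cells, 8.70 and 8.75 in CD27+CD11b+ cells, and 8.70 and 8.44 in CD27-CD11b+ cells. By these raw means only CD27-CD11b+ replicate 2 stood below the other 5 arrays. In the same order, the mean of the genes above background was 8.63 and 8.68, 8.66 and 8.70, and 8.87 and 8.72. Levels of different probe sets are not comparable, so only the change of each mean between arrays can be read. On CD27-CD11b+ replicate 1 the mean of the listed genes was 8.70, as on replicate 1 of both CD27+ subsets. That of the genes above background was 8.87 there, its highest. In all, 22 of 42 genes (52.4%) were higher on the high array in all 3 subsets, against 20.7% of all genes and 32.1% of genes above background. Ncl, Nip7 and Noc2l were higher there in none. The difference in the outer comparison had a median of -0.25 within the low arrays and -0.14 within the high arrays, so its direction was present in both. Monocyte markers moved with the kind of array in the same direction and cell cycle genes in the opposite one, and their part in these values was not tested. The mean of the cell cycle genes was 8.55 and 7.47 in CD27+CD11b- cells, 8.07 and 7.04 in CD27+CD11b+ cells, and 6.71 and 6.90 in CD27-CD11b+ cells.

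Other lists of the pathway were read on the same scale, where genes above background had a median of 0.17, so a sign against 0 depends on the centring. In CD27-CD11b+ against CD27+CD11b- cells, the median was 0.079 for 44 other small subunit factors and 0.046 for 48 other large subunit factors, and none of either passed the test. The kinase Riok1 had -0.89 and Imp3, a partner of U3 RNA, 0.79 (limma adjusted p = 0.079), and Rcl1 and Rrp36 had -0.51 and 0.62. Rrp15 and the assembly ATPase Mdn1 had -0.59 and -0.53, and Nle1 and Eif6, which keeps the subunits apart, had 0.54 and 0.76 (limma adjusted p = 0.055 for Eif6).

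Of 21 other RNA polymerase I and III factors none passed, with a median of 0.16; Maf1, a repressor of RNA polymerase III, had 0.69 (limma adjusted p = 0.050, just above the threshold), Polr3c 0.69, Taf1d -0.55 and Polr1d -0.32. Of 24 exosome and snoRNP assembly genes none passed, with a median of 0.12; Dis3, an exosome nuclease, had -0.62, Naf1 -0.34, Exosc5 0.48 and Ruvbl2 0.60. The 36 cytosolic ribosomal proteins had a median of -0.21, with 29 below 0 and none called; Rps20 had -0.50, Rps6 -0.46, Fau 0.40 and Rps15 0.56.

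**Figure D5:**
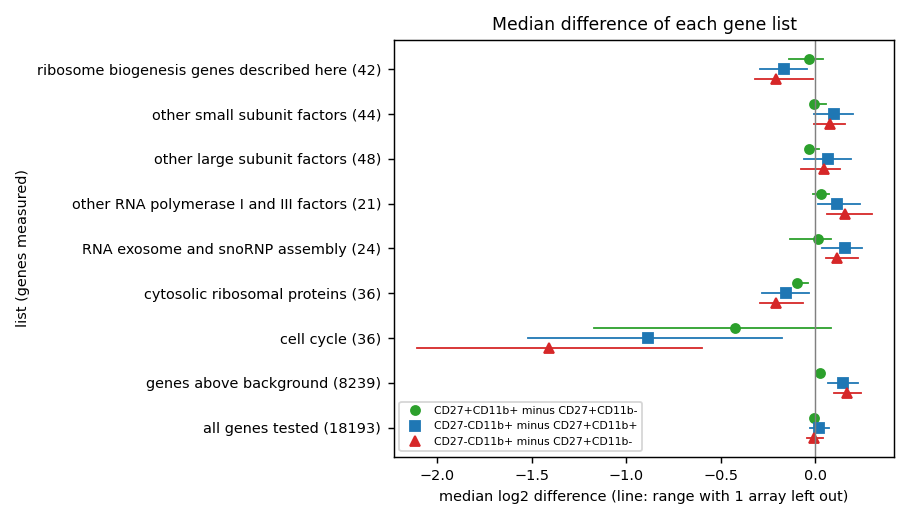
Median log2 difference of each gene list in the 3 comparisons (symbols), with the range of medians when 1 array is left out (lines) and the number of genes measured in brackets. The listed genes and the cytosolic ribosomal proteins lie below 0 in CD27-CD11b+ against CD27+CD11b- cells, the 4 lists of other ribosome biogenesis genes lie above it under this centring but below the genes above background, and the cell cycle list lies farthest below.

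Of 24 genes of the Myc network and growth control, 3 passed in CD27-CD11b+ against CD27+CD11b- cells, 1 lower and 2 higher, where 3.39% of all genes passed in either direction. Odc1, the rate-limiting enzyme of polyamine synthesis and a Myc target, had 12.37 and 12.65 in CD27+CD11b- cells, 11.50 and 11.46 in CD27+CD11b+ cells, and 10.48 and 11.13 in CD27-CD11b+ cells, and fell by 1.71 (limma adjusted p = 0.0093). Mxi1, a Max-binding antagonist of Myc, rose by 1.10 (limma adjusted p = 0.016), and Tsc2, an inhibitor of growth signalling near background, by 0.79 (limma adjusted p = 0.038). Myc itself had 8.55 and 9.03 in CD27+CD11b- cells, 8.84 and 9.34 in CD27+CD11b+ cells, and 8.03 and 7.41 in CD27-CD11b+ cells. The CD27-CD11b+ arrays lay below the other 4, and the outer difference of -1.07 (SE 0.27, limma adjusted p = 0.080) did not pass. The list as a whole had a median of 0.12.

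Of 11 measured genes of the p53 surveillance of ribosome assembly, counted without the listed genes, none passed, with a median of -0.014. Cdkn2a, below background, had -0.30, Sesn2 -0.18, Mdm4 0.18 and Rpl11 0.19. Of 36 cell cycle genes, 3 fell in CD27-CD11b+ cells, where 1.15% of all genes did, with a list median of -1.41: Mki67, the proliferation marker, fell by 2.76 (limma adjusted p = 0.040), the replication gene Cdc6 fell by 2.13 and Ccne2, below background, fell by 1.61. The cell cycle median was -1.92 within the low arrays and -0.68 within the high arrays. The cell cycle list, Tsr1 and both snoRNP groups lay lower in CD27-CD11b+ cells than in either other subset by their means. At the gain of CD11b the cell cycle list had a median of -0.42 and the listed box C/D proteins one of 0.066. The part of the cell cycle genes in these values was not tested.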

How the data were processed

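Total RNA of sorted spleen NK1.1+ cells was hybridised to Affymetrix mouse 430 2.0 arrays, 1 per sample. The values are log2 intensities that the authors normalised with RMA before they deposited them, per the submitters' processing notes; which release of RMA and which chip definition they used is not given in the sources used here, and scanner files were not used. RMA sets the arrays to a common distribution, so a shift of the whole distribution cannot be seen, and it compresses differences near background. Of 45101 probe sets, 64 controls were left out. A table of platform annotation gave 34945 probe sets 1 gene symbol, 932 several and 9160 none; only those with 1 symbol name a gene. Of the probe sets used, 27 have the plain ending, 6 end in _a_at, 6 in _s_at and 3 in _x_at.

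Differences were tested with limma 3.58.1 in R 4.3.3 on all 6 arrays with no covariate (3 residual and 4.93 prior degrees of freedom) and Benjamini-Hochberg adjustment over 18193 genes at 0.05. In data simulated for CD27-CD11b+ against CD27+CD11b- over 18193 genes, of which 200 were changed, in 5 runs, 52.6% of 2-fold and 97.2% of 4-fold changes were recovered, with 5.55% false calls. The simulated spread was independent between genes and held no kinds of array, and the changed genes had levels at or above the median. These rates may therefore not hold for the real arrays.

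All listed genes are named; of each other pathway list, the called genes or, with none, the 2 largest differences in each direction, and Cd27, Itgam and Myc. The genes, lists and the kinds of array were chosen with earlier results of these data known. Alternatives left out each array, added blocks, and changed the probe set choice, filter, prior, offset and centring. The marker lists of T cells (5 of 11 above background), B cells (1 of 9), neutrophils (5 of 10), dendritic cells (7 of 11), mast cells and basophils (2 of 8), erythroid cells (3 of 7), megakaryocytes (3 of 7) and stroma (1 of 10) were also read. RefSeq promoter windows were searched for 3 motifs.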

Additional observations from a re-analysis of the deposited data

How the results depend on the processing

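No listed gene was called by limma in either step under any alternative run, and none was called higher in CD27-CD11b+ against CD27+CD11b- cells. The listed genes called lower in that comparison were 1 in the main fit, 4 with the kind of array as a block, 2 with an intensity trend, 3 with the genes above background set equal (chosen after seeing the data), 0 with every probe set on its own and 0 to 1 with 1 array left out. Their median was -0.39 with the genes above background set equal and -0.32 to -0.012 with 1 array left out, the value nearest 0 coming without CD27-CD11b+ replicate 2. At the loss of CD27 it was -0.31 with that centring and -0.29 to -0.043 with 1 array left out, against -0.14 to 0.043 at the gain of CD11b.

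Counts of all genes moved more. At the gain of CD11b, 22 genes became 58 with the kind of array as a block, 0 with every probe set on its own, 11 with the mean of probe sets, 12 with only the 4 arrays compared, 0 with an offset of 32 and 4 to 30 with 1 array left out. At the loss of CD27, 54 became 296 with the block, 18 by probe set, 11 with the offset and 6 to 53 with 1 array left out. In the outer comparison 617 became 1480, 288 and 367 under the same 3 settings and 84 to 635 with 1 array left out. Where 1 array was left out, the lone array of its subset is assumed to vary like the others. The cause of these shifts was not tested.

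The replicate numbers of the titles do not pair the arrays in the same way across all subsets. The correlation of replicate 1 minus replicate 2 was 0.62 between the CD27+ subsets. It was -0.14 between CD27-CD11b+ and CD27+CD11b+ cells and -0.25 between the outer subsets. Replicate 1 was the low array in both CD27+ subsets and the high array in CD27-CD11b+ cells. The main fit had no block for the kind of array. With the replicate number as a block, 19, 58 and 760 genes were called in the 3 comparisons, and of the listed genes 0, 0 and 1.

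Single-gene values were compared with the main fit under every alternative except every probe set on its own, where Tsr1 did not pass either. Of 1884 such values, 1762 stayed within the spread or kept their call, and 112 moved by more. The call was lost in 4 (Tsr1) and gained in 6 (Npm1, Gnl3 and Wdr43). The sign differed from that of the main fit in 137 of the 1884 values, none of which was a called value. Genes near background limit what small differences can show.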
